A study of Homo sapiens and Mus musculus with 8 samples.

Results

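B16N is a mouse melanoma cell line, and its transcriptome after 5 weeks of ultraviolet (UV) exposure was compared with that after 2 weeks. The series holds 8 RNA-seq samples of mouse and human melanoma lines with 1 sample per group, and 4 of them are B16N. Here the B16N control (wild type, untreated, labelled day 0), the B16N culture exposed for 2 weeks and the one exposed for 5 weeks were used, all 3 kept in DMEM with fetal bovine serum and antibiotics. The UV wavelength, the dose and the schedule are not in the labels. The control is labelled day 0, so UV and time in culture cannot be told apart. The authors deposited comparisons of each exposed culture with the control and not levels, so the depth of each library is unknown. Each gene's change was a log2 ratio of exposed to control, obtained by turning the sign of the deposited value. No header states the direction. The turn was inferred, because all 1357 symbols with a row in a single mouse comparison had deposited values below 0. Every "higher" or "lower" here rests on it. Values credited to the authors below are given after this turn, with an SE derived from their test statistic. The difference between times was the change at 5 weeks minus the change at 2 weeks, in which the common control cancels. Members were the symbols with a row at both times and with values of their own, 10166 of 15386 symbols that had a usable row at either time. Another 3917 symbols in both tables shared their exact values with a different symbol and were left out.

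UV light damages DNA and also generates oxidants in cells. Oxidants release the transcription factor NRF2 from its inhibitor KEAP1, and NRF2 then turns on genes of glutathione synthesis, quinone reduction and haem and iron handling. A lack of amino acids or misfolded protein in the endoplasmic reticulum triggers the integrated stress response, in which ATF4 turns on genes that import and make amino acids. In melanocytes, the pigment cells from which melanoma arises, UV is also known to drive pigment synthesis through the receptor MC1R.

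At 5 weeks, 11 of 16 measured NRF2 target genes, among them the cystine importer gene Slc7a11, were higher than at 2 weeks, beside 2.31% of all genes. So were the metallothionein genes Mt1 and Mt2, 5 of 14 integrated stress response genes, Atf4 among them, 6 of 15 amino acid transporters and 4 of 10 one-carbon enzymes. Slc7a11 counts both as an NRF2 target and as a transporter, and Slc3a2 both as a stress response gene and as a transporter. The growth regulator gene Myc and the receptor genes Axl and Mc1r were lower, as were 4 of 20 hypoxia-responsive and 3 of 19 MAP kinase output genes, beside 1.44% of all genes. Of the 10166 genes, 381 differed (3.75%) at a Benjamini-Hochberg adjusted p under 0.05 by a two-sided normal test of the difference. Of these, 235 were higher at 5 weeks (2.31% of all genes) and 146 lower (1.44%). Their median difference was 0.86 on the log2 scale for those higher and -0.79 for those lower, and 92 and 40 of them differed at least 2-fold. Over all genes the median difference was -0.021. With 1 library per group there is no replicate check: the test compares these libraries and not the conditions, and the number of libraries behind the authors' p-values is not given in the sources used here. Below, a gene is called higher or lower where it passed this test, "did not pass" marks the others, and each adjusted p comes from it. Each list count below stands beside 2.31% of all genes higher and 1.44% lower. The test counts the error of the common control in both changes. When the control was assumed to hold 0.5 of the smaller squared standard error (SE) and this was taken out, 895 genes passed, the 381 among them.

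**Figure D1:**
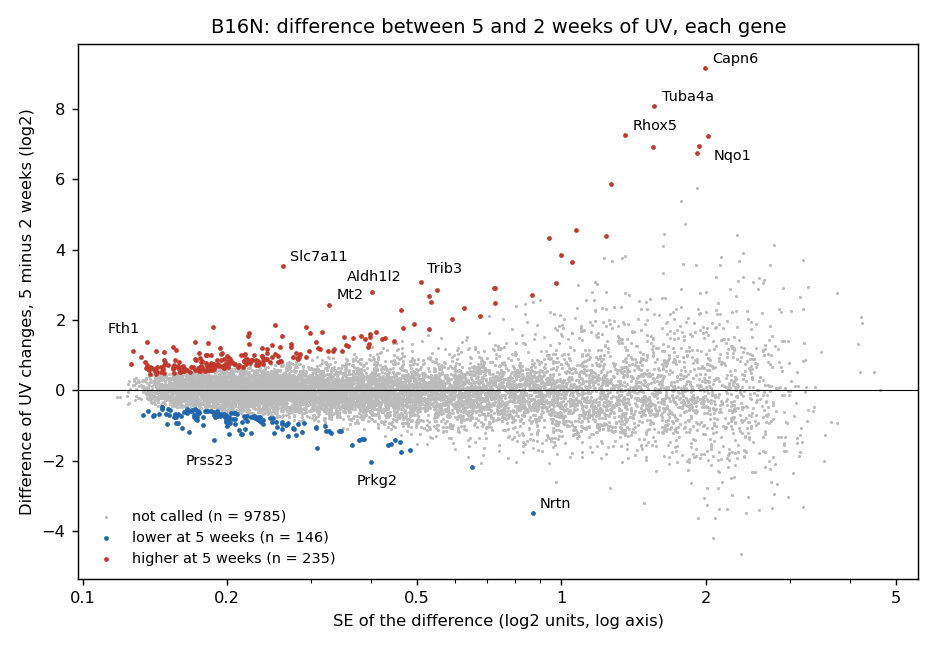
Each point is a gene, with the SE of its difference on a log axis (log2 units) and the difference of its UV changes, 5 minus 2 weeks, on the y axis (log2). Genes that passed the test are red where higher (235) and blue where lower (146) at 5 weeks, and the 11 that passed with an SE above 1 are all on the higher side.

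Most genes that passed had a low SE. The median SE of a difference was 0.38, and 353 of the 381 genes had an SE of at most 0.5. Of 1835 genes with an SE above 1, 11 passed and all were higher at 5 weeks. They were Capn6, Cbr1, Dkk3, Eya1, Nqo1, Rflnb, Rhox5, Sox21, Tuba4a, Ubqln2 and Zfp979, with adjusted p-values from 2.14e-05 for Rhox5 and 4.25e-05 for Tuba4a to 0.0186 for Rflnb. No fold is given for these. In bulk RNA, fewer cells of a type and less RNA per cell cannot be told apart.

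The difference between the times followed base composition. For want of a mouse reference, the GC content of the human gene of the same symbol stood in, which was found for 80.3% of the genes and 86.4% of the 381. Among genes with an SE of at most 0.3 at both times, the 909 of lowest GC content had a median difference of 0.15, with 58 higher and 9 lower at 5 weeks. The 909 of highest GC content had a median of -0.11, with 16 higher and 48 lower. With this trend taken out, 277 of 8159 genes passed, 166 higher and 111 lower, against 335 of the same genes before. Transcript length moved with the difference as well, from a median of -0.023 in the 909 shortest to 0.12 in the 909 longest, and 318 genes passed with that trend taken out, 178 higher (56.0%) and 140 lower. Setting the median of the 5232 genes of low SE (0.024) to 0 gave 210 higher (56.5%) and 162 lower. Genes described below whose call ended without the GC trend are marked with their group. Mt1, Mt2, Scd1, Gstp2, Txn1, Cyp51 and Ftl1-ps2 had no human gene of the same symbol and were not part of this check.

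**Figure D2:**
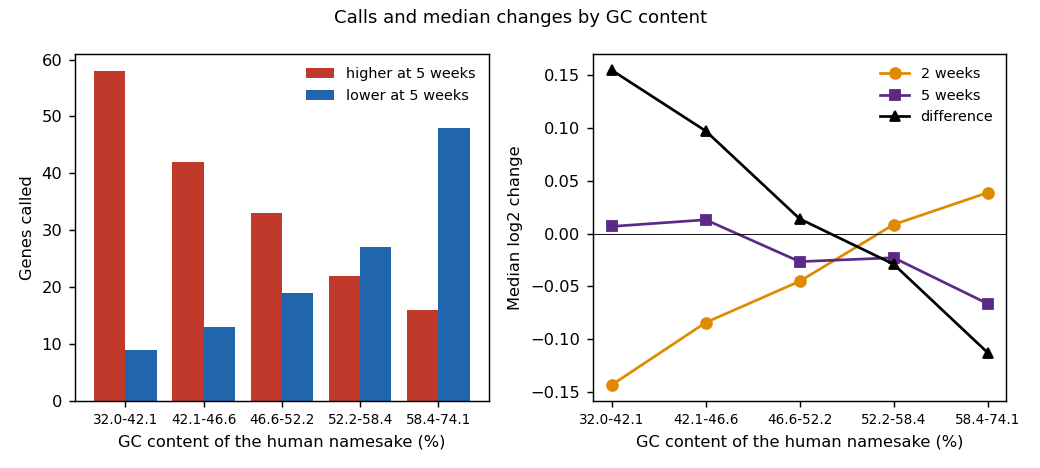
Left, the number of genes called higher or lower at 5 weeks in 5 classes of equal size by GC content of the human gene of the same symbol (percent). Right, the median log2 change at 2 weeks, at 5 weeks and their difference in the same classes: calls go from 58 higher and 9 lower in the lowest class to 16 higher and 48 lower in the highest.

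Genes of the antioxidant response had the largest share higher at 5 weeks of the 56 gene lists examined. Of 16 measured NRF2 target genes, 11 were higher and none lower, and their median difference was 1.39, beside 2.31% higher and a median of -0.021 over all genes. Slc7a11, the cystine importer that supplies glutathione synthesis, had a log2 change of -0.71 (SE 0.19) at 2 weeks and 2.82 (SE 0.18) at 5 weeks in the authors' deposited tables. It stood below the control at 2 weeks and above it at 5 weeks, and the difference of 3.52 (SE 0.26) was 11.5-fold and had the smallest p of all genes. Gclm, the modifier subunit of the enzyme of the first step of glutathione synthesis, went from -0.19 (SE 0.21) to 1.62 (SE 0.20) in the authors' deposited tables. Its difference was 1.81 (SE 0.29), while that of the catalytic subunit gene Gclc was 0.66 (SE 0.29) and did not pass. Glutathione reductase, Gsr, likewise did not pass at 0.74 (SE 0.32). The list members Abcc1 (-0.72, SE 1.16), Ugdh (-0.47, SE 0.21) and Prdx1 (-0.02, SE 0.56) lay below 0 and did not pass either. The thioredoxin gene Txn1 was higher by 0.70 (SE 0.19). The quinone and carbonyl reductase genes Nqo1 (adjusted p = 0.0136) and Cbr1 (adjusted p = 0.0158) were higher with an SE above 1, from the authors' deposited tables.

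Genes of haem and iron were among them. Hmox1, which degrades haem, stood at 0.05 (SE 0.21) at 2 weeks and at 2.56 (SE 0.49) at 5 weeks in the authors' deposited tables, a difference of 2.50 (SE 0.54, adjusted p = 3.47e-04). Fth1, the heavy chain of the iron store ferritin, was at -0.06 (SE 0.06) and then at 1.31 (SE 0.12) in the authors' deposited tables. At 2 weeks both genes were within 1 SE of the control, and the difference for Fth1 was 1.37 (SE 0.14). The haem transporter gene Slc48a1 was higher by 1.55 (SE 0.38) and the biliverdin reductase gene Blvrb by 1.41 (SE 0.45), the latter no longer passing with the median of genes set to 0. Slc40a1, the iron exporter ferroportin, was at -0.69 (SE 0.28) and at 0.93 (SE 0.29) in the authors' deposited tables and was higher by 1.61 (SE 0.40, adjusted p = 0.00343). Fth1 and Slc40a1 were the 2 of 8 measured iron and ferroptosis genes that passed, and none was lower. Ftl1-ps2, annotated as a light chain pseudogene, was higher by 1.12 (SE 0.13), and its reads may belong to the near-identical ferritin light chain gene. Cp, the ferroxidase ceruloplasmin, was lower (difference -1.54), with changes of 0.40 (SE 0.36) and -1.13 (SE 0.24) in the authors' deposited tables (adjusted p = 0.0156).

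Metallothioneins bind zinc and copper and scavenge oxidants. Mt2 was at -0.03 (SE 0.27) at 2 weeks and at 2.40 (SE 0.18) at 5 weeks in the authors' deposited tables, a difference of 2.44 (SE 0.33, adjusted p = 1.08e-10). Mt1 was at -0.15 (SE 0.08) and at 0.98 (SE 0.12) in the authors' deposited tables, a difference of 1.13 (SE 0.14, adjusted p = 2.54e-12). Neither stood above the control at 2 weeks. The zinc importer gene Slc39a10 was the third measured gene of this group, with a difference of -0.12 (SE 0.21). Glutathione transferases, which couple glutathione to foreign and oxidised compounds, were higher in 3 of 14 measured cases and lower in none, with a median of 0.85. Mgst1 was higher by 1.89 (SE 0.49), Gstm1 by 1.64 (SE 0.30) and Gstp2 by 0.79 (SE 0.22). Gsta2 was at 2.12 (SE 0.44) and 2.09 (SE 0.51) in the authors' deposited tables and did not pass between the times (difference -0.02, SE 0.67). Reads of Mt1 and Mt2, of the Gstm genes and of Gstp1 and Gstp2 may be split between near-identical copies. Not all antioxidant enzymes were higher: the glutathione peroxidase gene Gpx1 was at -0.09 (SE 0.08) and at -1.0 (SE 0.13) in the authors' deposited tables, lower at 5 weeks (difference -0.91, SE 0.16, adjusted p = 2.27e-06). The catalase gene Cat, named after its values were seen, was higher by 1.02 (SE 0.18).

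**Figure D3:**
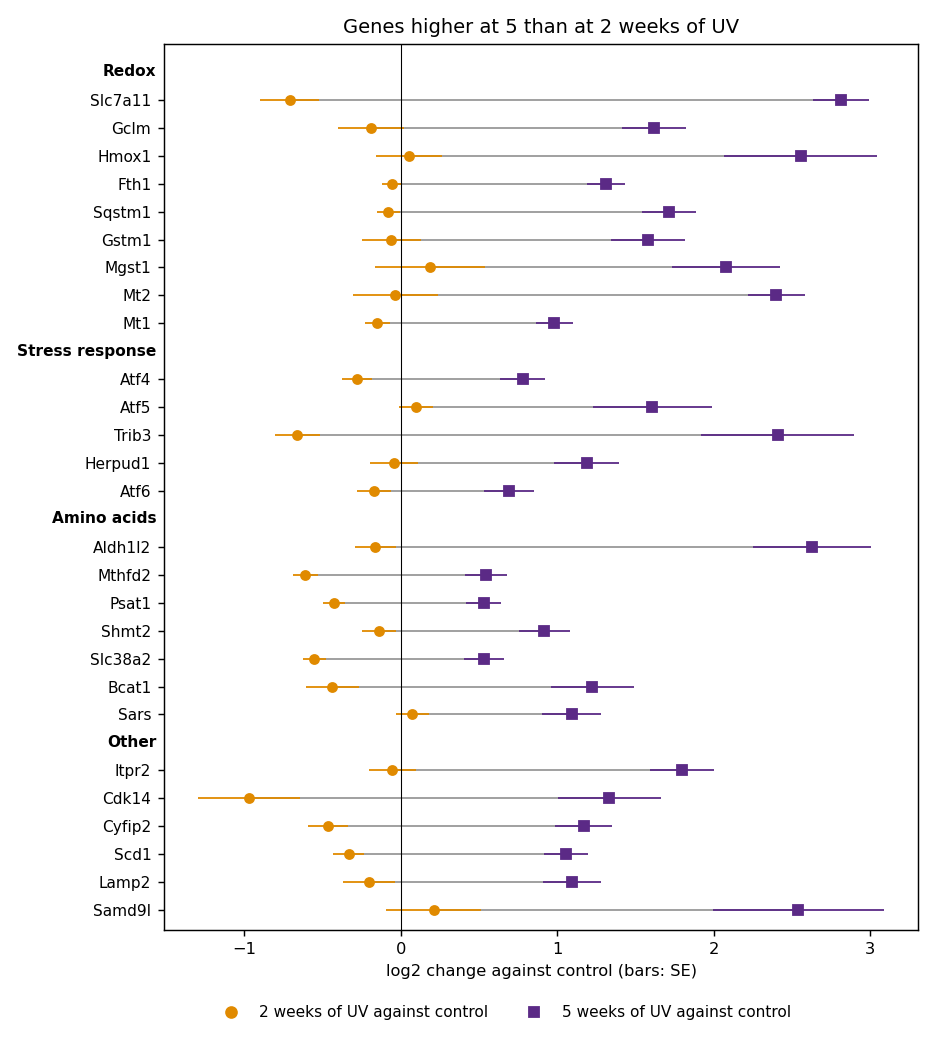
Log2 change against control (x axis) after 2 weeks (orange circles) and 5 weeks (purple squares) of UV for genes that were higher at 5 weeks, with bars of 1 SE. For Slc7a11, Trib3, Cdk14, Cyfip2 and Scd1 the circle lies below 0 and the square above it.

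Integrated stress response genes were higher at 5 weeks too. Of 14 measured, 5 were higher and none lower, and 13 had a difference above 0 (median 0.76). Atf4, the transcription factor at its centre, was at -0.28 (SE 0.10) and at 0.78 (SE 0.15) in the authors' deposited tables, a difference of 1.06 (SE 0.17, adjusted p = 6.26e-07). Its relative Atf5 was higher by 1.51 (SE 0.40). Trib3, an ATF4 target that restrains ATF4 in turn, was at -0.66 (SE 0.14) and at 2.41 (SE 0.49) in the authors' deposited tables, an 8.41-fold difference (3.07, SE 0.51, adjusted p = 6.66e-07). Eif4ebp1, a brake on cap-dependent translation, was higher by 0.80 (SE 0.20). The remaining gene that passed was Slc3a2, which did so narrowly and is described below with the amino acid transporters, where it is counted again. Ppp1r15a, which lifts the translational block, had a difference of 1.16 (SE 0.43) and Cebpb one of 0.55 (SE 0.28), and neither passed. Further genes of this response shared their values with an unrelated symbol, so which gene was measured is not known. Ddit3 went from 0.29 (SE 0.23) to 2.52 (SE 0.28), sharing with Lmln, and Atf3 from 0.06 (SE 0.20) to 1.45 (SE 0.22), sharing with Mrpl54, in the authors' deposited tables. With such symbols kept, 8 members of the group were higher.

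Enzymes that make serine, glycine and folate-bound one-carbon units followed the same course, with 4 of 10 higher, none lower and a median of 0.67. The mitochondrial folate enzyme gene Aldh1l2 was at -0.16 (SE 0.13) and at 2.63 (SE 0.38) in the authors' deposited tables, a difference of 2.79 (SE 0.40, adjusted p = 2.2e-09). Mthfd2, of the same mitochondrial pathway, was at -0.61 (SE 0.08) and at 0.55 (SE 0.13) in the authors' deposited tables (difference 1.16, SE 0.16, adjusted p = 1.63e-10). Psat1, which makes a serine precursor, was higher by 0.96 (SE 0.13), and Shmt2, which turns serine into glycine, by 1.06 (SE 0.20). The cytosolic folate gene Mthfd1 (difference -0.25, SE 0.30) did not pass, nor did Phgdh, the entry enzyme of serine synthesis (0.45, SE 0.23).

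Amino acid importers were also among the genes that were higher. Of 15 measured amino acid transporters, 6 were higher and none lower, with a median of 0.61. Besides Slc7a11, Slc38a2, a neutral amino acid importer, was at -0.55 (SE 0.07) and at 0.53 (SE 0.13) in the authors' deposited tables (difference 1.08, SE 0.15, adjusted p = 1.88e-10). Its relatives Slc38a1 (0.73, SE 0.15) and Slc38a7 (0.72, SE 0.21) were higher, as was the leucine transporter gene Slc7a5 (0.63, SE 0.16). Slc3a2, the chain that Slc7a11 and Slc7a5 both pair with, passed narrowly (0.66, SE 0.21) and failed with symbols of shared values kept, with the median of genes set to 0 and with the length trend taken out. The glutamine transporter gene Slc1a5 did not pass (0.11, SE 0.23). Among amino acid synthesis enzymes 3 of 13 were higher and none lower, among them Bcat1 (1.66, SE 0.32), which transfers amino groups of branched-chain amino acids, and Aldh18a1 (0.86, SE 0.19), of proline synthesis. Of 18 cytosolic aminoacyl-tRNA synthetases, which load amino acids onto tRNA, 15 had a difference above 0 (median 0.48) and 2 passed, Sars (1.02, SE 0.22) and Aars (0.83, SE 0.26). Aars did not pass with the median of genes set to 0. The tRNA export receptor gene Xpot was at -0.41 (SE 0.10) and at 0.93 (SE 0.15) in the authors' deposited tables (difference 1.34, SE 0.18, adjusted p = 1.96e-10).

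Among genes of the endoplasmic reticulum stress response, 4 of 20 were higher and 1 lower, with a median of 0.19. Herpud1, of protein degradation at the reticulum, was at -0.04 (SE 0.16) and at 1.19 (SE 0.21) in the authors' deposited tables (difference 1.23, SE 0.26, adjusted p = 2.5e-04). The stress sensor gene Atf6 was higher by 0.86 (SE 0.19), the chaperone gene Hsp90b1 by 0.69 (SE 0.16) and the transcription factor gene Xbp1 by 0.90 (SE 0.28). Xbp1 did not pass without the GC trend, without the length trend or with the median of genes set to 0. The co-chaperone gene Dnajb11 was lower (difference -0.67, SE 0.20). Of 13 cytosolic heat shock genes 1 passed, Hsph1 (0.55, SE 0.18), and its call ended under the same 3 settings and with symbols of shared values kept.

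Some lipid and lysosome genes passed, beside 2.31% of all genes higher at 5 weeks. Scd1, which makes monounsaturated fatty acids, was at -0.33 (SE 0.10) and at 1.06 (SE 0.14) in the authors' deposited tables, a difference of 1.39 (SE 0.17, adjusted p = 1.05e-12). Of 22 cholesterol biosynthesis genes 2 were higher and none lower, Fdps (1.04, SE 0.25) and Cyp51 (0.66, SE 0.14), and 19 had a difference above 0 (median 0.25). Abca1, which exports cholesterol, was at -0.95 (SE 0.23) and at 0.34 (SE 0.27) in the authors' deposited tables and was higher at 5 weeks (1.29, SE 0.35, adjusted p = 0.0123). The lysosomal acid lipase gene Lipa (0.87, SE 0.15) and the membrane protein gene Lamp2 (1.30, SE 0.25) were the 2 of 33 lysosome genes that passed, both higher. Sqstm1, the autophagy receptor p62, which also binds KEAP1, was at -0.08 (SE 0.07) and at 1.71 (SE 0.17) in the authors' deposited tables. Its difference of 1.79 (SE 0.19) had the third smallest p of all genes. With Uvrag (0.53, SE 0.15) it made up the 2 of 20 autophagy genes that were higher.

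In the TCA cycle group, 3 of 17 genes were higher and none lower, and all 3 encode cytosolic enzymes: Idh1 (0.75, SE 0.20), Mdh1 (0.74, SE 0.19) and Me1 (0.70, SE 0.19), the last without a call once the GC trend was out. Of 14 measured mitochondrially encoded genes, mt-Co1 (1.02, SE 0.23) and mt-Nd4 (0.85, SE 0.23) were higher, and all 14 had a difference above 0 (median 0.42). Reads of these genes may be shared with copies in the nuclear genome. Nuclear genes of the respiratory chain had 1 of 60 lower (1.44% over all genes), Cox7b (difference -0.57, SE 0.15), none higher, and a median of -0.079.

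For Ca2+ signalling, the release channel gene Itpr2, an inositol trisphosphate receptor of the endoplasmic reticulum, was at -0.05 (SE 0.15) at 2 weeks and at 1.80 (SE 0.20) at 5 weeks in the authors' deposited tables. Its difference was 1.85 (SE 0.25), 3.6-fold. Mcu, the pore through which mitochondria take up Ca2+, was higher by 0.96 (SE 0.28), a call that ended without the GC trend. These were the 2 of 21 genes of Ca2+ stores and pumps that passed, beside 3.75% of all genes. None of the 6 measured genes of store-operated entry passed the test (1 with an unadjusted p under 0.05): Orai2 had a difference of 0.53 (SE 0.20), Stim2 one of 0.17 (SE 0.55) and Saraf one of 0.09 (SE 0.23). The Ca2+-binding protein gene S100a4 was higher by 2.04 (SE 0.59).

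Pigment genes split. The enzyme and structural genes of the melanosome had small differences between the times: Tyr by 0.37 (SE 0.18), Dct by 0.13 (SE 0.17), Pmel by 0.05 (SE 0.17) and Tyrp1 by -0.04 (SE 0.14), and none passed. All 4 had changes above 0 at both times in the authors' deposited tables. Mlana was higher (0.52, SE 0.16), but not without the GC trend. Mlph, which tethers melanosomes to their motor, was at 0.46 (SE 0.14) and at -0.52 (SE 0.22) in the authors' deposited tables (difference -0.98, SE 0.27, adjusted p = 0.0106). Mc1r, the melanocortin receptor, was at 0.41 (SE 0.08) and at -0.65 (SE 0.14) in the authors' deposited tables. It stood above the control at 2 weeks and below it at 5 weeks, and the difference was -1.06 (SE 0.16), 0.479 times the 2-week level. In all, the melanin list had 1 of 15 genes higher and 1 lower, and the lineage regulators 1 of 11 higher (Nfib, without a call once the GC trend was out) and 1 lower (Mc1r).

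Of 24 interferon response genes, 2 were higher and none lower, and 20 had a difference above 0 (median 0.57), with a median SE of 0.80. Isg15, a ubiquitin-like antiviral protein, was at -0.86 (SE 0.34) and at 0.93 (SE 0.32) in the authors' deposited tables (difference 1.79, SE 0.47, adjusted p = 0.00689). Samd9l, an antiviral restriction gene, was higher by 2.33 (SE 0.63).

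Hypoxia-responsive genes were lower at 5 weeks in 4 of 20 cases and higher in none, with 15 below 0 and a median of -0.33. At 2 weeks these 4 stood above the control, from 0.22 for Ndrg1 to 1.08 for Fam162a in the authors' deposited tables. Slc2a1, the glucose transporter GLUT1, was at 0.50 (SE 0.15) and at -0.43 (SE 0.22) in the authors' deposited tables (difference -0.93, SE 0.27, adjusted p = 0.0202). Fam162a, a mitochondrial protein gene induced by HIF1, was at 1.08 (SE 0.29) and at -0.06 (SE 0.19) in the authors' deposited tables (difference -1.14, SE 0.35, adjusted p = 0.0314). Higd1a, a HIF-induced protein of the mitochondrial inner membrane, followed the same course (-1.01, SE 0.32), as did Ndrg1 (-0.63, SE 0.18). None of the 4 passed at an adjusted p under 0.01. Hif1a itself differed by -0.26 (SE 0.30), Pdk1 by -1.58 (SE 0.83) and Bnip3 by -0.58 (SE 0.33), and none of these passed. In glycolysis 2 of 20 genes were lower and none higher, Slc2a1 and the pyruvate kinase gene Pkm (-0.47, SE 0.15), and Pkm did not pass without the GC trend.

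MAP kinase output genes, whose levels follow ERK activity, were lower in 3 of 19 cases and higher in none, with 15 below 0 and a median of -0.36. Dusp6, the phosphatase that inactivates ERK in the cytoplasm, was at -0.14 (SE 0.12) and at -0.85 (SE 0.15) in the authors' deposited tables (difference -0.71, SE 0.19, adjusted p = 0.00802). Dusp4, its nuclear relative, was at 0.60 (SE 0.13) and at -0.23 (SE 0.19) in the authors' deposited tables (difference -0.83, SE 0.23, adjusted p = 0.0156). Spry2, which blocks signalling from receptors to RAS, was lower as well (-0.90, SE 0.26). None of the 3 differed 2-fold. Myc, the growth regulator, was at -0.14 (SE 0.11) and at -1.34 (SE 0.20) in the authors' deposited tables, a difference of -1.20 (SE 0.23, adjusted p = 2.21e-05). It was the single one of 19 immediate early genes that passed. Fos stood at 1.46 (SE 0.36) and at -0.43 (SE 0.53) in the authors' deposited tables and missed the threshold (-1.88, SE 0.64, adjusted p = 0.0704), and Ier2 did too (-0.57, SE 0.20, adjusted p = 0.0776), while Jun differed by -0.06 (SE 0.21). Axl, a receptor tyrosine kinase linked to dedifferentiated melanoma, was at -0.37 (SE 0.11) and at -1.48 (SE 0.19) in the authors' deposited tables (difference -1.10, SE 0.22, adjusted p = 8.02e-05). It was the 1 of 12 measured receptor tyrosine kinases that passed. Among 7 measured genes of the undifferentiated melanoma state Axl alone passed too, with 3 differences above 0 and a median of -0.059.

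**Figure D4:**
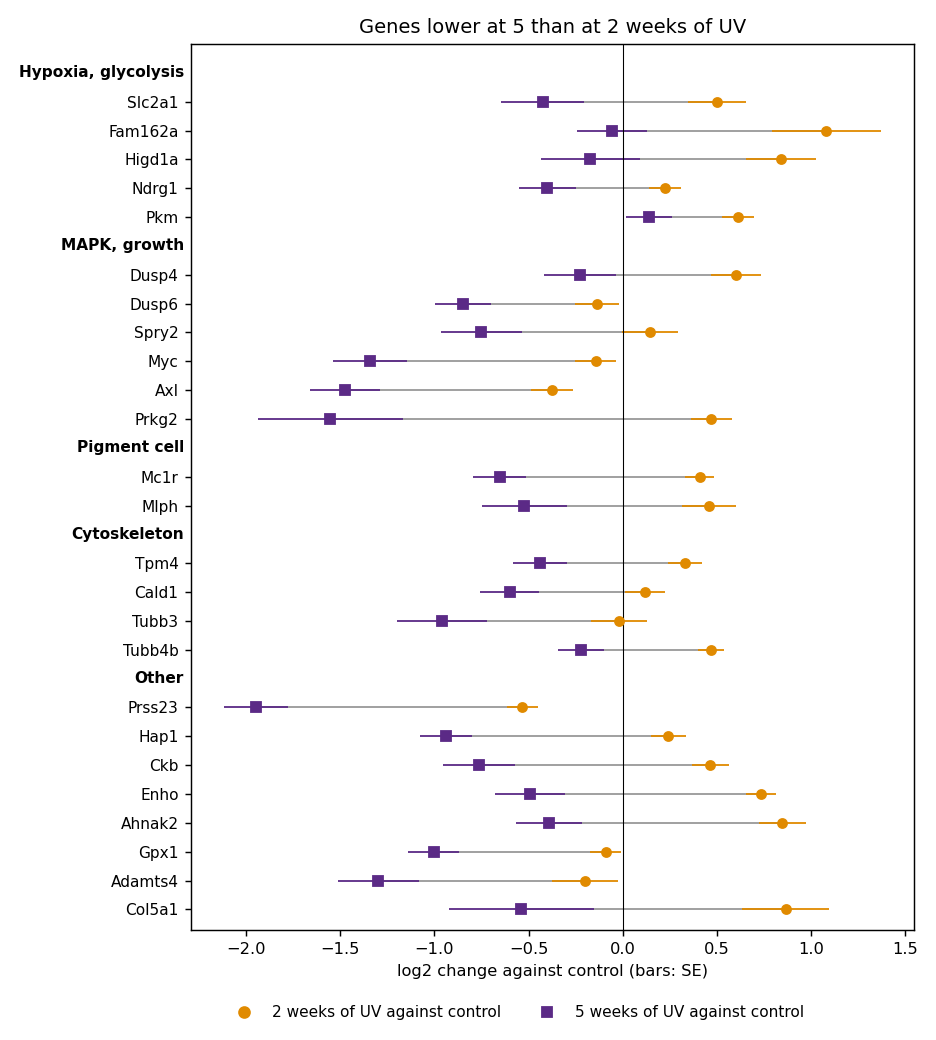
Log2 change against control (x axis) after 2 weeks (orange circles) and 5 weeks (purple squares) of UV for genes that were lower at 5 weeks, with bars of 1 SE. The circles of Slc2a1, Fam162a, Higd1a, Dusp4 and Mc1r lie above 0, while Prss23 and Axl lie below 0 at both times.

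In the Wnt pathway, Fzd1, a receptor gene, was higher by 0.92 (SE 0.24), the secreted Dkk3 was higher with an SE above 1, and Ctnnb1, which encodes beta-catenin, was lower (difference -0.56, SE 0.17), among 13 measured. Of the p53 targets, Mdm2, which limits p53, was higher (0.71, SE 0.15) and Gadd45b lower (-0.93, SE 0.29, no call without the GC trend), among 19. The polyamine and nucleotide group had Srm (0.74, SE 0.22) and Azin1 (0.58, SE 0.17) higher, the latter not without the GC trend. Spermidine synthase is the product of Srm, and Azin1 encodes an inhibitor of antizyme. The antizyme gene Oaz2 was lower (-1.20, SE 0.25), as was the thymidine kinase gene Tk1 (-0.67, SE 0.14). The nucleolar genes Ncl (0.76, SE 0.19) and Npm1 (0.65, SE 0.16) were the 2 of 29 ribosome biogenesis genes that were higher, beside 2.31% of all genes.

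Matrix and cytoskeletal genes went both ways. Tpm4 (difference -0.77, SE 0.17) and Cald1 (-0.72, SE 0.19), which bind actin filaments, were lower. They were 2 of 17 actin genes, beside 1.44% of all genes lower, and none was higher. Of 21 measured tubulin and kinesin genes, 4 were higher and 2 lower, with a median of -0.012. The tubulin genes Tubb4b (-0.69, SE 0.14) and Tubb3 (-0.94, SE 0.28) were lower, while the tubulin gene Tuba4a was higher with an SE above 1. The kinesin genes Kif1b (0.78, SE 0.19) and Kif5b (0.57, SE 0.14) were higher, as was Map1b (0.73, SE 0.23). The calls of Tubb3, Kif5b and Map1b ended without the GC trend. Of 8 collagens 7 had a difference below 0 (median -0.75) and 1 passed, Col5a1 (-1.40, SE 0.45), without a call once the GC trend was out or with shared values kept. Of 14 cadherins and protocadherins 12 had a difference below 0 (median -0.99) and 1 passed, Pcdhb16 (-0.76, SE 0.22), whose reads may be shared with close relatives in its gene cluster. The aggrecanase gene Adamts4 was lower by a log2 difference of -1.10 (SE 0.28) and the elastic fibre gene Fbln5 higher by 1.23 (SE 0.27).

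**Figure D5:**
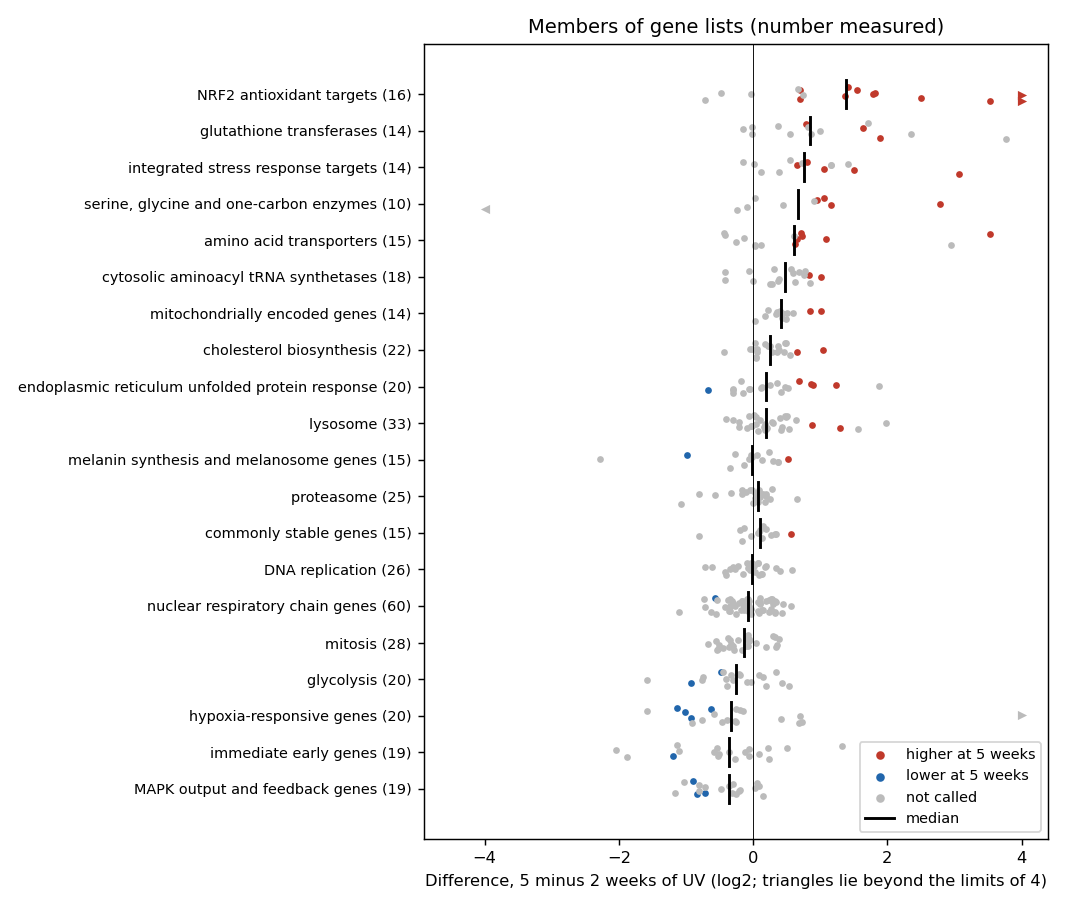
Differences of UV changes, 5 minus 2 weeks (x axis, log2), for the measured members of 20 gene lists, with red for members higher and blue for members lower at 5 weeks and a black bar at the median. NRF2 targets have a median of 1.39 with 11 of 16 red, and hypoxia-responsive genes one of -0.33 with 4 of 20 blue.

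Outside these groups, the genes of largest difference with an SE of at most 0.5 had varied roles. Cdk14, a cyclin-dependent kinase of the Wnt pathway, was at -0.97 (SE 0.33) and at 1.33 (SE 0.33) in the authors' deposited tables (difference 2.30, SE 0.46, adjusted p = 1.08e-04). Cyfip2, of the actin-regulating WAVE complex, was at -0.46 (SE 0.13) and at 1.17 (SE 0.18) in the authors' deposited tables (1.64, SE 0.22, adjusted p = 1.7e-10). Mras, a RAS relative, was higher by 1.65 (SE 0.41), Prkaa2, the catalytic subunit of the energy sensor AMPK, by 1.31 (SE 0.22) and the vesicle protein gene Syt4 by 1.23 (SE 0.15). Among genes that were lower, Prkg2, a cGMP-dependent kinase, was at 0.47 (SE 0.11) and at -1.55 (SE 0.39) in the authors' deposited tables (difference -2.02, SE 0.40, adjusted p = 7.17e-05). The serine protease gene Prss23 was below the control at both times, at -0.53 (SE 0.08) and at -1.95 (SE 0.17) in the authors' deposited tables (difference -1.41, SE 0.19, adjusted p = 7.76e-11), the smallest p among genes lower at 5 weeks. Pmepa1 (-1.41, SE 0.38), a brake on TGF-beta signalling, Ier5l (-1.63, SE 0.31), Fndc4 (-1.54, SE 0.36) and Hyal2 (-1.37, SE 0.38), a hyaluronidase, were lower too. Ckb, the brain-type creatine kinase, was at 0.46 (SE 0.10) and at -0.77 (SE 0.19) in the authors' deposited tables (-1.23, SE 0.21, adjusted p = 3.28e-06). The peptide hormone gene Enho (-1.23, SE 0.20), Hap1 (-1.18, SE 0.17), which links cargo to microtubule motors, and Ahnak2 (-1.24, SE 0.21) also passed.

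In several housekeeping groups no gene passed at an adjusted p under 0.05, where 3.75% of all genes did, so lists of this size would hold few at that share. These were the proteasome (25 genes, median difference 0.069), cytosolic ribosomal proteins (34, -0.061), nucleotide excision repair (21, -0.060), DNA replication (26, -0.022) and mitosis (28, -0.14). At an unadjusted p under 0.05 by the same test they had 2, 4, 1, 1 and 8 genes in that order, beside 1261 of all 10166 genes. The share in mitosis was above that over all genes, and the shares in the others were below it. The NF-kB cytokine list (16, median 0.31), the TGF-beta and BMP list (16, -0.23) and the Notch list (8, 0.028) had none at the adjusted threshold either, and 2, 3 and 1 at the unadjusted one. In mitosis 21 of 28 genes lay below 0. Of 15 commonly stable genes, Ipo8 passed (0.56, SE 0.18) and lost its call without the GC trend, and the median was 0.11.

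Melanocyte markers had values at both times in 6 of 7 cases, and Sox10 shared its values with another symbol. Markers of other cells were scarce: none of the fibroblast, endothelial, keratinocyte or T cell markers had values of its own at both times, and 1 of 7 macrophage markers did. That one, Lyz2, was at 0.38 (SE 0.94) and at 3.47 (SE 0.70) in the authors' deposited tables, and the difference missed the threshold (adjusted p = 0.139, SE above 1). Of the other macrophage markers, Tyrobp had a row at 5 weeks and none at 2 weeks, Cd68 shared its values with another symbol, and Ptprc, Adgre1, Csf1r and Itgam had no row at either time. The part of such cells in the differences was not tested.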

How the data were processed

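RNA-seq of B16N cells was compared from tables in which the authors set each UV-exposed culture (2 or 5 weeks) against the control. GRCm38 is the genome build in the submitters' processing notes. Aligner, counting and test are not given in the sources used here. Per the file headers, the deposited columns are gene symbol, log2 fold change, p-value and a test statistic, treated as a score. The deposited p-value is the two-sided normal p of that score (largest gap 5.0e-08), so dividing a log2 fold change by its score gave the SE. The sign was turned, because all 1357 symbols with a row in a single mouse table had deposited values below 0. Rows without a symbol were left out (1 per table), and 14648 and 14821 rows remained. The difference between times, its SE (squares added), a two-sided normal test and a Benjamini-Hochberg adjustment over 10166 genes were computed with Python 3.11.15, numpy 2.4.6, pandas 2.3.3 and scipy 1.17.1, and drawn with matplotlib 3.10.9. The procedure was tested on simulated data. GC content and length are medians over protein-coding transcripts of the human namesake in GENCODE, which matched 8159 genes.

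Named genes are the 12 largest differences per direction with an SE of at most 0.5, the 10 smallest p-values per direction, up to 6 passing members per list, measured members of the stress, hypoxia, immediate early, amino acid, metal and Ca2+ entry lists, and genes of opposite sign at the times. Genes that passed with an SE above 1, Cat and genes of the closing section outside this rule were added after their values were seen. Some genes under this rule are not reported here. Members and the 56 lists (915 of 1462 symbols measured) were chosen with earlier results of these data known. Alternatives were fold minimums of 1.5 and 2, no test, an adjusted p under 0.01, SE limits of 0.5 and 0.3, shared values kept, centring, the control's error taken out and, after seeing the data, GC and length trends taken out.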

Additional observations from a re-analysis of the deposited data

Results flagged for a closer look

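The UV changes of 381 genes differed between 5 and 2 weeks by the test of the difference itself. Among them, 30 genes also passed against the control at both times with opposite signs, 24 higher and 6 lower at 5 weeks. The 10 of largest difference were named. Higher at 5 weeks were Slc7a11 (difference 3.52), Trib3 (3.07), Cdk14 (2.30), Cyfip2 (1.64), Scd1 (1.39), Xpot (1.34), Prkaa2 (1.31) and 1700122H20Rik (1.20). Lower were Prkg2 (-2.02) and Ckb (-1.23). Both changes share 1 control, whose value cancels in the difference.

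Some rows could not be used in the comparison. At 5 weeks 7 genes passed against the control that had no row at 2 weeks: Cpa6, Tmeff2, Ccdc149, Cnksr2, Fkbp11, Tmeff1 and Soga3. Their direction is not a result, since the sign of the changes was set from symbols with a row in a single table. Each had an SE above 1 and so no fold is given, and their adjusted p-values in the authors' deposited table, after adjustment over its rows, ran from 0.00982 for Cpa6 to 0.0456 for Soga3.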

How the results depend on the processing

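Centring and the GC and length trends were the alternatives that move a difference. Under them no named gene that passed changed direction (the trends only for genes with a human namesake). That outcome was all but fixed beforehand and is no check of direction. Centring moves a difference by 0.024, and the medians of the GC classes ran from -0.11 to 0.15. These shifts are smaller than the differences of genes that passed. No paired analysis was possible because each group has 1 sample, and no replicate could be left out. The count of 381 genes was 342 with a 1.5-fold minimum, 413 and 414 with SE limits of 0.5 and 0.3, 469 with shared values kept, 372 after centring, and 277 and 318 of 8159 genes without the GC and length trends. It was 132 (69.7% higher) with a 2-fold minimum, 902 (50.1% higher) with 2-fold and no test, 221 (68.3% higher) at an adjusted p under 0.01, and 895 with the control's part of the error taken out. List genes that passed went from 98 to 44, 60 and 172 with the 2-fold minimum, the stricter p and the control's part out, and named genes from 125 of 205 to 67 (2-fold minimum), 83 (2-fold alone) and 82 (stricter p). NRF2 targets higher went from 11 to 7 at the stricter p and to 7 with an SE of at most 0.3. Stress response genes went from 5 to 3 (2-fold), 8 (shared values kept) and 8 (control's part out). Amino acid transporters went from 6 to 2 with the 2-fold minimum and 3 with 2-fold alone. MAP kinase genes lower went from 3 to 0 (2-fold) and 1 (stricter p), and hypoxia genes lower from 4 to 2 and 0. Fold and p limits lower counts by construction, and taking out the control's part raises them by construction, since it lowers every SE. The SE limit of 0.3 left out the NRF2 targets Nqo1, Hmox1, Cbr1 and Blvrb. The cause of the other shifts was not tested. Without the GC trend 18 of the named genes lost their call, without the length trend 6, and with centring 7. Depth is unknown, and the SE of 0.38 at the median gene limits what could pass.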

Other observations

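Other genes that passed the test of the difference were chosen after their values were seen and stand for no group. The translocon genes Tram1 (difference 0.86, SE 0.16) and Ssr1 (0.68, SE 0.16) and the clathrin heavy chain gene Cltc (0.80, SE 0.15) were higher at 5 weeks. The initiation factor genes Eif2s2 (0.62, SE 0.14), Eif4g2 (0.57, SE 0.14) and Eif4e3 (1.22, SE 0.24) were higher too. Cltc, Tram1, Ssr1, Eif2s2 and Eif4g2 stood below the control at 2 weeks, between -0.51 and -0.36, in the authors' deposited tables. The mitochondrial chaperone gene Hspa9 (0.72, SE 0.14), the aldehyde dehydrogenase gene Aldh3a2 (0.86, SE 0.22), the monoamine oxidase gene Maoa (1.56, SE 0.22) and Hgsnat, of lysosomal heparan sulfate breakdown (1.03, SE 0.19), were higher as well. Adh7, an alcohol dehydrogenase gene, was higher by 4.34 with an SE of 0.94.

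Lower at 5 weeks were the mitochondrial import gene Timm8b (-0.99, SE 0.18), Serf2 (-0.95, SE 0.15), Romo1 (-0.81, SE 0.17), Elof1, a transcription elongation factor gene (-0.75, SE 0.16), and the nucleosome-binding genes Hmgn1 (-0.64, SE 0.17) and Hmgn2 (-0.73, SE 0.20). The natriuretic peptide gene Nppb was at 1.33 (SE 0.13) at 2 weeks and at 0.03 (SE 0.23) at 5 weeks in the authors' deposited tables (difference -1.30, SE 0.27, adjusted p = 2.02e-04). The oxidase subunit gene Cyba (-1.15, SE 0.33) and Prodh, of proline breakdown (-0.89, SE 0.21), were lower. Hmgn5, of the same family as Hmgn1 and Hmgn2, went the other way and was higher at 5 weeks (difference 1.02, SE 0.19). Hmgn1 and Hmgn2 have processed copies in the genome, so their reads may be split. The genes named in these paragraphs kept their call with the GC trend taken out.

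Rhox5, Capn6, Ubqln2 and Sytl4, among the genes of large difference and high SE, are X-linked in the mouse. Of 249 genes whose human namesake lies on the human X chromosome, 10 were higher (4.02%) and 3 lower (1.20%), beside 2.45% and 1.54% of 7910 genes with a namesake elsewhere. Capn6, Ubqln2 and Sytl4 are among the 10 that were higher, so the count is not independent of the genes named first. The counts come without a test.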
